A study of Danio rerio with 9 samples.

Results

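A set of 105 circular RNAs (circRNAs) of the zebrafish brain was seen in the control libraries and had no read in any library of fish given cypermethrin. They were chosen from the 2581 circRNAs of the deposited table by 2 conditions: a value above 0 in at least 2 of the 3 control libraries, and 0 in all 3 libraries labelled CYP. The values in the 3 libraries labelled CPF played no part in the choice. The control group was fish with no toxication, and the other groups were fish after acute toxication with CYP or with CPF, each with 3 libraries made from Trizol-extracted total RNA of brain tissue. The series title names cypermethrin and chlorpyrifos, which are taken here as CYP and CPF. The labels do not state strain, age, sex, dose, exposure time, the number of fish per library or whether different libraries come from different fish. The spread between libraries, and each p-value built on it, may therefore be technical.

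A circRNA forms when a downstream splice site joins an upstream one, which closes one or more exons into a ring. It is recognised by reads that cross this back-splice junction. Rings have no free ends, so exonucleases attack them slowly, and brain is known as a tissue rich in them. Cypermethrin is a pyrethroid that keeps voltage-gated sodium channels of neurons open. Chlorpyrifos is an organophosphate whose oxon form inhibits acetylcholinesterase, the enzyme that breaks down acetylcholine at synapses. The tables name a circRNA by a number alone, so no host gene, position, sequence or role is given for any of them here, and the brain label could not be compared with marker genes.

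Values are read as RPM, the junction reads of a circRNA among 1000000 sequenced reads. One read was worth 0.0106 to 0.0145 RPM, so nearly all values below stand for a handful of reads. In units of 1000000 reads, library totals, inferred by taking each library's smallest value above 0 as 1 read, ran from 68.7 to 94.7. The deposited circRNAs took 1735 to 2238 of these reads in the control libraries, 1299 to 2228 in CYP and 3045 to 4614 in CPF. The CPF libraries thus had more circRNA reads, 47.2 ± 7.74 RPM (SD, n = 3), while control stood at 23.4 ± 1.40 and CYP at 23.1 ± 4.24. In circRNA reads, CYP 3 was the lowest library with 1299; in total reads it was CPF 3. Control 1 stood apart: 12.6% of its detected circRNAs rested on a single read, against 41.9% and 47.4% in the other control libraries, and CYP 1 stood at 25.1%.

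In control, the members were scarce circRNAs. Of the 105, 41 were found in control 2 and control 3 alone, 22 in control 1 and control 2, 22 in control 1 and control 3, and 20 in all 3. Their reads in the 3 control libraries together ran from 2 to 33, with a median of 5 and quartiles of 3 and 7. Members just inside the limit were the 13 with a single read in each of 2 control libraries. Just outside it lay 428 circRNAs with reads in 1 control library and none in CYP, which had 1 to 13 control reads with a median of 2. The mean control level of a member ran from 0.00773 to 0.122 RPM with a median of 0.0220 RPM.

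Control 1 carried fewer members at higher read numbers. It held 64 members, with a median of 4 reads for each, and 8 of them had 1 read. Control 2 held 83 members, 34 with 1 read, and control 3 held 83, 46 with 1 read. For 42 members most of the control reads came from control 1, for 21 from control 2 and for 14 from control 3. Together the members took 263, 169 and 176 reads in the 3 control libraries, which is 11.8%, 9.56% and 10.1% of the circRNA reads there (95% Wilson intervals 10.5 to 13.2%, 8.28 to 11% and 8.81 to 11.7%). Intervals and limits for reads here cover counting error and nothing else, since PCR can copy 1 molecule into several reads.

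**Figure D1:**
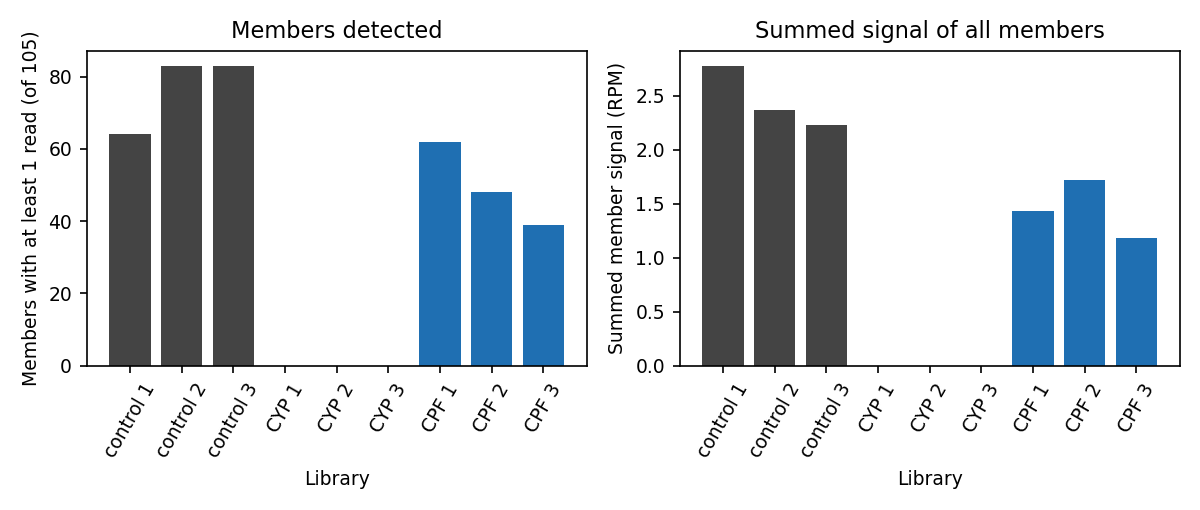
Number of members with at least 1 read (left) and the summed level of all 105 members in RPM (right) in each of the 9 libraries; bars are single libraries, dark for control and blue for CPF. Control libraries held 64 to 83 members and CPF libraries 39 to 62, while the CYP libraries are at 0 by the choice of members.

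The zeros in CYP set a limit below the control level for most members, but rarely far below it. A count of 0 allows up to 3 reads, or 0.0343 to 0.0431 RPM in a single CYP library and 0.0131 RPM over the CYP group, whose total was 229 in units of 1000000 reads. At its control level a member would have given a median of 4.66 reads in the CYP group, and for 30 of the 105 members fewer than 3. With 3 reads over the CYP group as the limit, the control level was more than 1 time the limit for 75 members, more than 2 times for 36, more than 3 times for 8 and more than 5 times for 2. Such limits take the control reads as exact, and those reads were a condition of the choice.

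Absence of this kind was as frequent in the other direction. Members made up 23.6% of the 444 circRNAs found in at least 2 control libraries. Of the 485 circRNAs found in at least 2 CYP libraries, 113 (23.3%) were at 0 in all control libraries. By limma over the 1158 circRNAs seen in at least 3 of the 9 libraries, 0% passed an adjusted p of 0.05 for CYP against control, so no member passed. At an unadjusted p under 0.05, 31 circRNAs were higher and 44 (3.80%) lower in CYP, and edgeR and DESeq2 also made 0 calls. Of those tested, 3.20% had every control library above every CYP library. By the choice of members this holds for each of the 20 found in all 3 control libraries, and nothing is read from it. The count of members itself moved with single libraries. It was 61 without control 1, 42 without control 2 or without control 3, and 139 to 144 when a CYP library was left out. The directions of these shifts are set by the rule. Without a control library it asks for reads in both remaining ones, and without a CYP library it asks for fewer zeros.

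The members with most control reads show how uneven these levels were. The most abundant, dre_circ_2975, had 26 reads in control 1, 1 in control 2 and 6 in control 3, or 0.275, 0.0140 and 0.0758 RPM. Control 1 was far above the other control libraries. The control level was at least 10.2-fold above the CYP limit with all libraries and at least 3.54-fold without control 1. In CPF it had 4 reads in CPF 1 (0.0440 RPM) and none in CPF 2 or CPF 3, so the groups overlapped. Its level in pooled reads was 8.14-fold lower in CPF than in control, and 2.81-fold lower without control 1.

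dre_circ_9274 came next. Its control reads numbered 12, 4 and 4, or 0.127, 0.0559 and 0.0506 RPM, and 0 in all CYP and all CPF libraries. Control 1 was again the highest, but the other control libraries were also clear of 0. Control was at least 6.21-fold above the limit of the CYP group, or 4.05-fold without control 1, and at least 6.58-fold above that of the CPF group, or 4.29-fold without control 1. dre_circ_9018 had the same pattern at lower levels, with 7, 1 and 2 control reads (0.0739, 0.0140 and 0.0253 RPM) and none in CYP or CPF. Its control level was at least 3.11-fold above the CYP limit and 3.29-fold above the CPF limit. Without control 1 these bounds were 1.52-fold and 1.61-fold. These were the only 2 members with reads in every control library and in no library of either insecticide.

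Other members with many control reads were missing from 1 control library. dre_circ_2974 had 0, 2 and 10 control reads and 6, 0 and 0 CPF reads. One library held most of its reads in each group. dre_circ_6472 had 0, 5 and 6 control reads and 0, 0 and 1 CPF reads. dre_circ_440 had 5, 4 and 0 in control and 1, 0 and 0 in CPF. For these 2 members the control level was 10.9 times (95% exact counting interval 1.58 to 467) and 8.88 times (1.23 to 389) the CPF level. The intervals are wide because each CPF level is a single read. Control reads were a condition of the choice, and these members were named for having many. Ratios of control to CPF for members named in this way are therefore a description, and nothing is read from the intervals.

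dre_circ_2779 had 0, 3 and 8 control reads and 1, 1 and 3 in CPF, a level 2.17-fold lower in pooled reads. Without control 3 the direction turned, and the CPF level was 1.14 times that of control. dre_circ_3763 had 0, 4 and 5 control reads and 0, 4 and 0 in CPF, 2.22-fold lower, or 1.46-fold without control 3. dre_circ_3291 was found in all 6 libraries of both groups, with 8, 1 and 6 control reads (0.0845, 0.0140 and 0.0758 RPM) and 2, 1 and 6 in CPF (0.0220, 0.0121 and 0.0873 RPM). Its groups overlapped over nearly their whole range.

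After CPF, most members were still detected. Of the 105, 85 had at least 1 read in a CPF library: 37 in 1 library, 32 in 2 and 16 in all 3. The other 20 (19.0%) were at 0 in every CPF library as well. Of all 2581 circRNAs, 1198 had reads in CPF 1, a further 559 in CPF 2 and a further 258 in CPF 3. The rest of the 2581 were at 0 in CPF, a share slightly above the 19.0% of the members. Among the 444 circRNAs found in at least 2 control libraries, 29 (6.53%) were at 0 in CPF. Many detections were thin, since 19 members rested on a single CPF read and 47 on 1 to 3 reads, while 38 had more than 3. CPF 1 held 62 members, CPF 2 held 48 and CPF 3 held 39. Their total reads fell in the same order (91.0, 82.4 and 68.7 in units of 1000000), while CPF 2 had the most circRNA reads. Of the 37 members seen in a single CPF library, 21 were seen in CPF 1, 9 in CPF 2 and 7 in CPF 3. Without CPF 1, the number at 0 in CPF was 41.

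Summed over all members, the level was 1.43, 1.72 and 1.18 RPM in the CPF libraries and 2.78, 2.36 and 2.22 RPM in the control libraries. The members took 3.45%, 3.08% and 2.66% of the CPF circRNA reads. The control sums were raised by the choice of circRNAs with control reads, so these sums are given as a description.

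Among members, a lower level in CPF than in control was more frequent than a higher one. The mean RPM was higher in CPF for 28 members (26.7%) and lower for 77, of which 57 had CPF reads and 20 had none. Over the whole table, 65.5% of circRNAs had a higher mean in CPF. The median log2 fold change of CPF against control over all 105 members, on log2(RPM + 0.0126), was -0.47, beside 0.32 over all 2581 circRNAs. Over the other 339 circRNAs found in at least 2 control libraries, which also met the condition on control reads but had CYP reads, 63.4% had a higher mean in CPF and the median was 0.28. Control reads were a condition of the choice, so these values are a description. When libraries were rescaled to equal circRNA totals, 6 members had a higher mean in CPF and the median was -0.81, beside 0.20 over all circRNAs. The count of 28 was 13, 10 and 8 without control 1, 2 and 3, in each case with fewer members, and 52 and 46 without CYP 2 and CYP 3, with more.

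**Figure D2:**
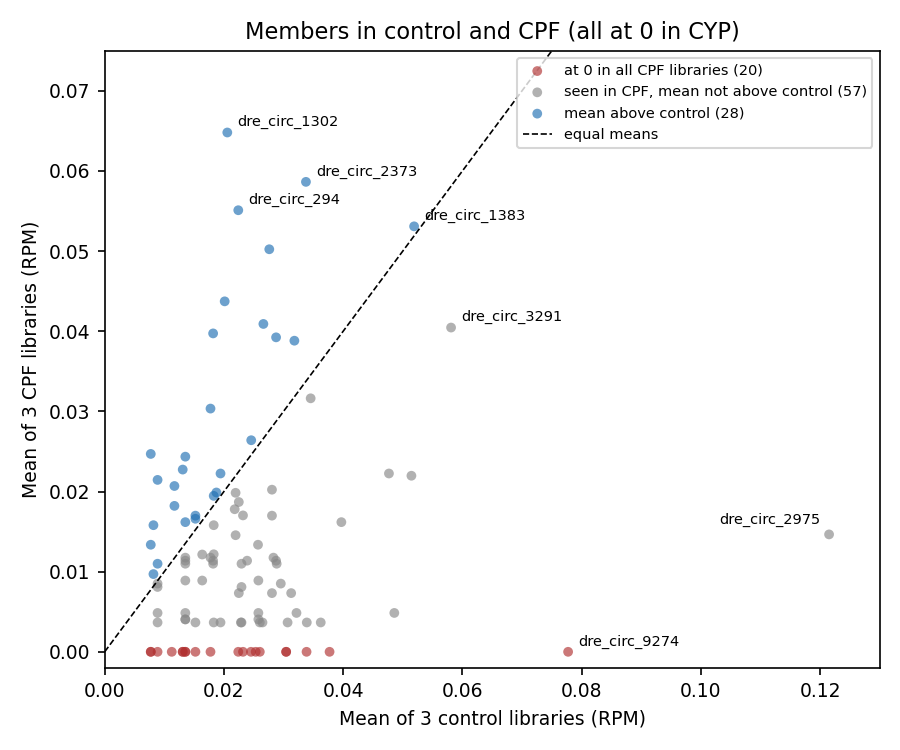
Mean level of each of the 105 members in the 3 control libraries (horizontal, RPM) and in the 3 CPF libraries (vertical, RPM), coloured by class, with a dashed line at equal means. The 28 members above the line lie mostly at low control levels, 20 members lie on the zero line of CPF, and dre_circ_2975 and dre_circ_9274 lie far to the right.

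The 20 members absent from both exposures had 2 to 20 control reads, with a median of 4.5. Of these 20, 13 had reads in control 1, which gave 50.9% of their control reads, against 43.3% for all members. Beside dre_circ_9274 and dre_circ_9018, all of them were found in 2 control libraries with 2 to 8 reads in all. They are 20 of the 29 circRNAs that had reads in at least 2 control libraries and none in CPF, or 69% of that list and 19.0% of the members. Without control 1, 2 or 3, the number absent from both was 9, 8 and 7, where the rule asked for reads in both remaining control libraries.

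Absence in CPF was compared with that of the other 339 circRNAs found in at least 2 control libraries, which had at least 1 CYP read. Of these, 9 (2.65%) were at 0 in all CPF libraries, and 211 (62.2%) were found in all 3, against 16 of the members (15.2%). The 339 were more abundant in control, with a median of 6 reads and a highest of 135, so the sets were also set side by side within classes of control reads. At 2 to 3 control reads, 8 of 30 members (26.7%) and 2 of 80 others (2.50%) were at 0 in CPF. At 4 to 5 reads these were 3 of 26 (11.5%) and 5 of 75 (6.67%), with 95% Wilson intervals of 4 to 29% and 2.88 to 14.7%. Such intervals take each circRNA as an independent trial, which it is not. Nothing is therefore read from their overlap or lack of it in any class.

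At 6 to 9 reads they were 7 of 41 (17.1%) and 1 of 87 (1.15%), and at 10 or more 2 of 8 (25%) and 1 of 97 (1.03%). In every class the members had the higher share. Members had no CYP reads by choice, and the others had at least 1. Equal control reads therefore do not make the sets equal in abundance, and the shares are a description. circRNAs of 1 library are not independent replicates, so no p-value is given. The share also differed by CYP reads just outside the limit. It was 3 of 42 circRNAs (7.14%) with 1 CYP read and 3 of 45 (6.67%) with 2. At 3 to 4 CYP reads it was 3 of 86 (3.49%), and at 5 or more 0 of 166. These shares rest on 9 circRNAs. The last class was also more abundant, with a median of 7.5 control reads against 4 to 5 in the others. Frequent absence in CPF was not particular to the members. Of the 428 circRNAs with reads in 1 control library and none in CYP, 219 were at 0 in CPF. Those 428 had a median of 2 control reads. With each library left out in turn the share at 0 in CPF ran from 14.8 to 39.0% for members and from 1.60 to 7.37% for the others. It was 11.2% and 1.73% without control 1 and CYP 1 together.

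**Figure D3:**
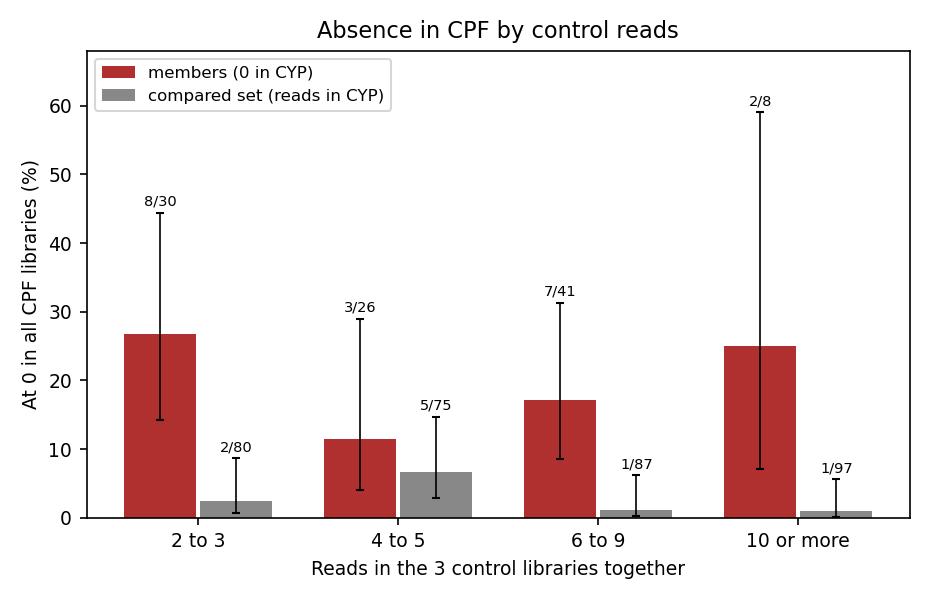
Share of circRNAs at 0 in all 3 CPF libraries (percent, vertical) by their reads in the 3 control libraries together (horizontal), for members and for the other circRNAs found in at least 2 control libraries. Whiskers are 95% Wilson intervals that take each circRNA as an independent trial, and they hold no error of reads or libraries. The numbers are circRNAs at 0 of circRNAs in the class. Members stand above the others in each class, by least at 4 to 5 reads (11.5% against 6.67%).

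Levels in CPF followed the same order within these classes. Pooled CPF reads of the members stood at 0.895 times their control level at 2 to 3 control reads, 0.979 times at 4 to 5, 0.466 times at 6 to 9 and 0.311 times at 10 or more. For the other 339 circRNAs the ratios were 2.31, 1.73, 1.93 and 1.55. A mean above control was found for 11 of 30, 10 of 26, 6 of 41 and 1 of 8 members in the same order, and for 58 of 80, 46 of 75, 53 of 87 and 58 of 97 of the others. The part that the condition on CYP reads, depth and the uneven control libraries have in this difference was not tested.

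The 10 members with the highest CPF means had 4 to 15 control reads. dre_circ_1302 had 2, 2 and 1 reads in control (0.0211, 0.0280 and 0.0126 RPM) and 4, 10 and 2 in CPF (0.0440, 0.121 and 0.0291 RPM). Every CPF library lay above every control library, by a narrow margin in CPF 3. CPF 3, control 1 and control 2 had the same 2 reads, and library totals alone parted CPF 3 from these controls. Its mean was 0.0206 ± 0.00768 RPM in control and 0.0648 ± 0.0495 in CPF (SD, n = 3), and the CPF mean was 0.0365 without CPF 2. On the log2 scale the change was 1.06 with an SE of 0.78 and a limma adjusted p of 0.446.

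dre_circ_2291 was the steadiest member in CPF, with 4 reads in each of the 3 libraries (0.0440, 0.0486 and 0.0582 RPM). In control it had 4, 2 and 1 reads (0.0422, 0.0280 and 0.0126 RPM). The groups did not overlap, but control 1 and CPF 1 had the same 4 reads and were parted by their library totals alone. On the log2 scale the change was 0.71 with an SE of 0.78 and a limma adjusted p of 0.633. These were the 2 members with all CPF libraries above all control libraries, where 18.5% of the 1158 tested circRNAs had this pattern. The 1158 include circRNAs without control reads, which have it whenever all CPF libraries have reads. Members had control reads by the choice, so nothing is read from the difference. With equal circRNA totals it held for 0 members. It held for 5 without CYP 2 or CYP 3, for 7 without CPF 1, and for 4 without CPF 2 or CPF 3.

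In the opposite direction, 7 members had every control library above every CPF library, where 0.950% of the tested circRNAs (11) had it. The pattern needs reads in all 3 control libraries, which 20 of the 105 members had, so nothing is read from this count. Beside dre_circ_9274 and dre_circ_9018 they were dre_circ_432, dre_circ_449, dre_circ_698, dre_circ_1054 and dre_circ_2605, which were named after their values were seen. Each of the first 4 had a single CPF read, in CPF 1, against 5 to 8 control reads, and dre_circ_2605 had 3 CPF reads against 7. In all 5 the lowest control library and the highest CPF library had the same number of reads, and their library totals alone parted them.

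dre_circ_294 and dre_circ_2843 owed their CPF level to CPF 2. dre_circ_294 had 0, 3 and 2 control reads and 4, 10 and 0 in CPF, and its CPF mean of 0.0551 RPM was 0.0220 without CPF 2. dre_circ_2843 had 2, 1 and 2 control reads and 2, 9 and 0 in CPF, with a CPF mean of 0.0437 RPM and of 0.0110 without CPF 2. For dre_circ_2373 it was CPF 3 that stood out, with 6, 0 and 3 control reads and 1, 4 and 8 in CPF. In all 3 of these members the groups overlapped.

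dre_circ_1383 had close to the same mean in both groups, 0.0519 ± 0.0575 RPM in control and 0.0531 ± 0.00867 in CPF. It had 0, 3 and 9 control reads but 5, 5 and 3 in CPF, so the control libraries were far more spread. dre_circ_1118 had 0, 3 and 3 control reads and 3, 5 and 2 in CPF. dre_circ_400 had 0, 3 and 1 control reads and 4, 5 and 1 in CPF. dre_circ_2933 had 3, 3 and 1 control reads and 1, 4 and 4 in CPF. In each of these last 3 members the libraries of both groups overlapped, although the mean was higher in CPF.

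**Figure D4:**
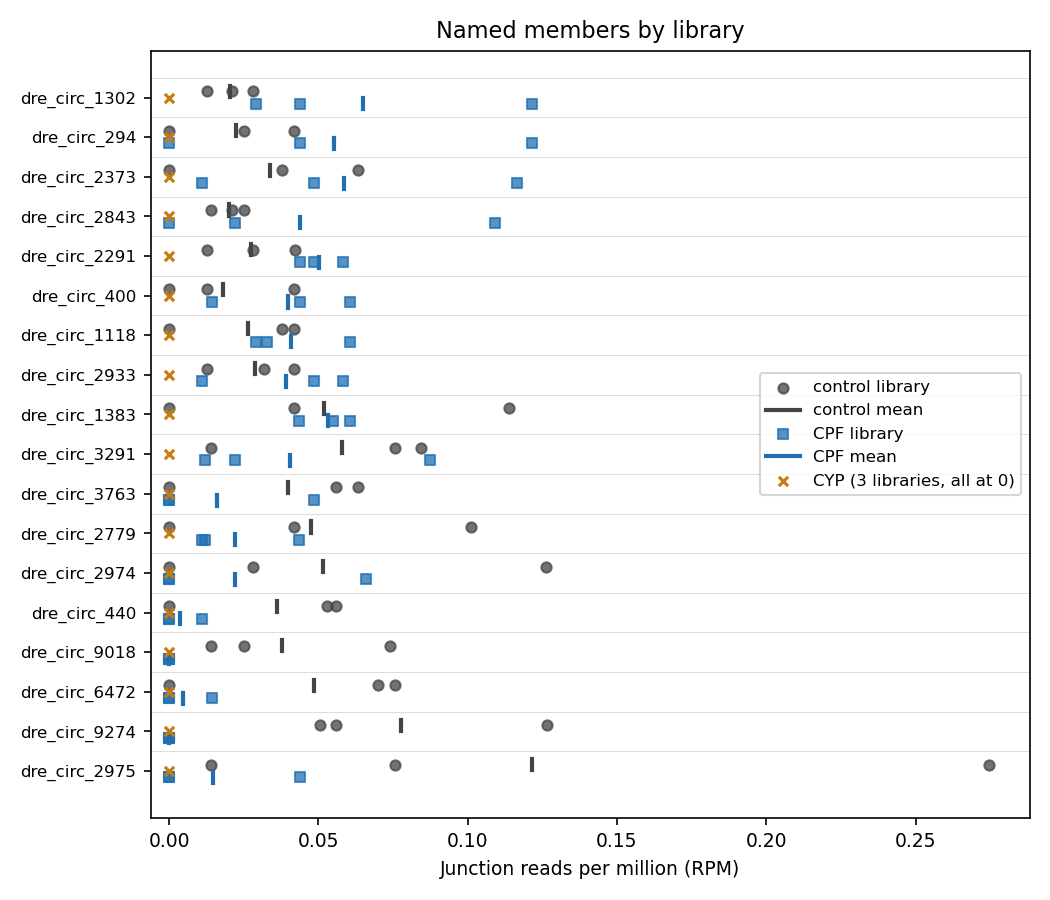
Level of the 18 members named by rule in each library (RPM, horizontal), with control libraries as dark circles, CPF libraries as blue squares, group means as vertical ticks and the CYP libraries at 0 as crosses. Members are ordered by the difference of the CPF and control means, from dre_circ_1302 at the top to dre_circ_2975 at the bottom, and only dre_circ_1302, dre_circ_2291, dre_circ_9274 and dre_circ_9018 have groups that do not overlap.

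No member passed the test in CPF against control. Of the 105, 87 were seen in at least 3 of the 9 libraries and were tested. The other 18 had reads in only 2 libraries, all control. By limma, 5 of the 1158 tested circRNAs (0.432%) passed an adjusted p of 0.05, and 0 of them were members. At an unadjusted p under 0.05, 0 of the 87 tested members were higher and 6 were lower in CPF. Of all tested circRNAs, 16.8% were higher and 0.864% lower. The choice by control reads favours lower values in CPF, so nothing is read from these 6. The smallest adjusted p belonged to dre_circ_9274, at 0.0701 by limma with a log2 fold change of -2.74 (SE 0.76), and all 3 CPF libraries were below all controls. With a pseudocount 4 times as large its adjusted p was 0.0323, and over the other alternatives the smallest adjusted p of any member ran from 0.068 to 0.437. dre_circ_9274 passed the filter of the test through its control reads alone, and control reads were a condition of the choice. Its p-values are therefore a description, and nothing is read from them.

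In CYP against CPF, the members' CYP values were fixed at 0, and 0 of the 87 tested members passed, where 0.0864% of all tested circRNAs did. Of the tested circRNAs, 17.4% had every CPF library above every CYP library. The 16 members found in all 3 CPF libraries have this pattern by construction. At an unadjusted p under 0.05 by limma, 14 of the 87 tested members were lower in CYP, where 171 (14.8%) of the 1158 were. The zeros in CYP were a condition of the choice. Nothing is therefore read from this count or from the members' p-values in this comparison. The smallest limma adjusted p among members was 0.187, shared by dre_circ_1302 (log2 fold change -2.43, SE 0.78), dre_circ_1383 (-2.37, SE 0.80), dre_circ_2291 (-2.31, SE 0.78) and others. With 3 reads over the CYP group as the limit, the CPF level was at least 5.03-fold higher for dre_circ_1302, 4.09-fold for dre_circ_1383 and 3.77-fold for dre_circ_2291. For dre_circ_1302 it was at least 2.86-fold without CPF 2. All 3 of these members were among those named for their high CPF means, so the bounds are a description. The comparisons share their libraries, CPF against control and CYP against control sharing the 3 controls, so their values for the members are not independent.

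In all, 8 members appear in the authors' deposited tables. The authors' deposited table for CYP against control lists 16 circRNAs, 10 of them lower in CYP, and dre_circ_2975, dre_circ_9274 and dre_circ_3291 are 3 of these 10. For CPF against control, the authors' deposited table lists 60 circRNAs with 3 lower in CPF, of which dre_circ_2975 and dre_circ_9274 are members. The authors' deposited table for CYP against CPF lists 62 circRNAs, all lower in CYP, among them dre_circ_294, dre_circ_1302, dre_circ_1383, dre_circ_2291 and dre_circ_2373. The adjusted p of each of these members in the authors' deposited tables is 0.979 or above. The lists were chosen by the authors on these libraries and are no independent evidence of direction.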

How the data were processed

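Per the file headers and the sheet name, the authors deposited RPM values (fpm in the sheet name) for 2581 circRNAs in 9 libraries. Aligner, circRNA caller and filter: not given in the sources used here. The submitters' processing notes name DESeq2 and, as genome build, UMD3.1 (a name of a cattle assembly), with no role. The deposited signal of the CPF columns is the same quantity, except that dre_circ_2902, which is no member, lacked a decimal point in 3 cells, and it was put back behind the leading digit. Division by the column's smallest value above 0 gave whole reads for 100% of values (tolerance 1e-06 of the value). The authors' deposited comparison tables hold adjusted p-values, which were read, p-values of which some lost their exponent, and log2 fold changes stored as a score without decimal point, of which the sign alone was read.

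The test was limma 3.58.1 (trend, empirical Bayes) in R 4.3.3, fitted to log2(RPM + 0.0126), the pseudocount being the median value of 1 read, in 1 fit of all 9 libraries over circRNAs above 0 in at least 3. Fold changes on this scale understate changes of low circRNAs. p-values were adjusted by Benjamini-Hochberg over all circRNAs tested. The procedure was tested on simulated reads. The alternative tests were edgeR 4.0.16 and DESeq2 1.42.0 on recovered reads. Libraries of a group differed by a chi-square per degree of freedom of 1.83 to 4.13, so none was counted as a copy. Other values used scipy 1.17.1, numpy 2.4.6 and pandas 2.3.3 under Python 3.11.15, and figures matplotlib 3.10.9.

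The members and the rules were chosen with earlier results of these data known. Named were the 10 members with most control reads, the 10 with the highest CPF mean, those in all 3 control and no CPF libraries, those with all CPF above all control libraries, and those in the authors' tables. The tables held 0 unused sample columns.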

Additional observations from a re-analysis of the deposited data

Results flagged for a closer look

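For 2 members, every CYP library lay below every control library and every CPF library above it, a pattern that was not tested as such. Every CPF library lay above every control library for 18.5% of the 1158 tested circRNAs, some of which had no control reads. With equal circRNA totals this held for 0 members. In dre_circ_2291, control 1 and CPF 1 had the same 4 reads. In dre_circ_1302, CPF 3 had the same 2 reads as control 1 and control 2. The CYP values of 0 were a condition of the choice of members, so the position of CYP is fixed and the CPF libraries alone are free to differ. The direct comparison of CYP with CPF gave log2 fold changes of -2.31 for dre_circ_2291 and -2.43 for dre_circ_1302, and neither passed (limma adjusted p = 0.187 for each). Both rest on 12 and 16 CPF reads in all.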

How the results depend on the processing

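Of 120 alternatives to the reported results, 60 stayed within 1.5 times the reported count or within the spread between CPF libraries. The other 60 moved. Of the 60 that stayed, 20 are counts of 0 for CYP against control. Others among them were fixed in advance, such as the 105 members without CPF 1, CPF 2 or CPF 3, since the rule does not use CPF. Counts cannot change sign, and 0 of the 10 alternatives to the median log2 fold change did. Requiring at least 2 reads for presence gave 47 members, 10 of them at 0 in CPF and 10 higher in CPF. Requiring all 3 control libraries gave 20, 2 and 6. With single libraries left out, members numbered 42 to 144, those at 0 in CPF 7 to 41, those higher in CPF 8 to 52, and those with all CPF above all control libraries 2 to 7. Equal circRNA totals left 6 members higher in CPF and 0 without overlap. With each CPF library at the 1299 circRNA reads of the smallest library, 45.8 members (43.6%) would be expected at 0 in CPF, and 48.1 (14.2%) of the 339 others. Without control 1 and CYP 1 together, chosen after seeing the data, 9 members were at 0 in CPF. The members' median log2 fold change of -0.47 became -0.87 with a pseudocount of 0.00316, -0.20 with 0.0506, -0.81 with equal totals and -0.82 with quantile normalization. It stayed between -0.59 and -0.42 without single libraries.

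Calls over all circRNAs numbered 5 in CPF against control and 1 in CYP against CPF. With equal totals, quantile normalization, edgeR with TMM and DESeq2 they were 0 and 0. edgeR with TMM on the inferred library totals, chosen after seeing the data, gave the same. The calls were 9 and 3 with the larger pseudocount, 15 and 3 at 6 of 9 libraries, and 0 and 3 with the compared groups alone. CPF against control gave 0 with the smaller pseudocount and 2 without a filter. Without single libraries they ran from 0 to 8 and from 0 to 4. The cause of these shifts was not tested. With the replicate number as a block the calls stayed at 0, 5 and 1. Same-numbered libraries of different groups correlated at -0.0555 to 0.106 in their deviations from group means, and libraries of different numbers at -0.111 to 0.0748. With so few reads for a circRNA, such values cannot show whether the numbers pair the libraries. Depth limits every member: 0 reads in a library allow up to 0.0317 to 0.0436 RPM.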

Other observations

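The circRNA numbers carry the library in which a circRNA of the table was first found. In the order CPF 1, CPF 2, CPF 3, CYP 1, CYP 2, CYP 3, control 1, control 2 and control 3, first-found circRNAs fill separate, rising ranges of numbers, from 3 to 3300 for CPF 1 up to 9801 to 10372 for control 3. Members first found in that order number 62, 16 and 7 in the CPF libraries, 0 in the CYP libraries, and 13, 7 and 0 in control 1, 2 and 3. The 20 members absent from both exposures accordingly have numbers of 8964 to 9769. The share of numbers that is present in the table is 36.3% in the range of CPF 1, 26.9% in that of control 1 and 11.5 to 23.0% in the other ranges.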
